A study of Mus musculus with 4 samples.

Results

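The genes described here are the matrix metalloproteinases (Mmp), the Adamts proteases with their Adamts-like relatives, and the tissue inhibitors of metalloproteinases (Timp), in mouse lower molar germs. They were taken by name: every non-control probe whose gene name on the array starts with Mmp and a digit, with Adamts, or with Timp and a digit. That gave 47 genes on 80 probes and 89 spots, of 27666 genes and 41174 probes on the array. Of the 47 genes, 35 were measured, meaning that the brightest probe of the gene stood well above background at E11, E12, E16 or E18 or on at least 2 arrays of E14. These were 12 of 21 Mmp genes, 16 of 17 Adamts genes, 4 of 5 Adamts-like genes and 3 of 4 Timp genes, beside 17396 measured genes in all.

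Mmp enzymes are zinc proteases that are made as inactive proenzymes and cut collagens, gelatin, proteoglycans and other proteins around the cell, either after secretion or, for the membrane-type members, at the cell surface. Adamts enzymes are secreted relatives with thrombospondin repeats, and they process procollagens and cleave large proteoglycans, while Adamts-like proteins carry the repeats without a protease domain. Timp proteins bind the active site of these enzymes and block it. In a tooth germ the dental epithelium grows into and folds within mesenchyme across a basement membrane, enamel matrix is later cut by Mmp20, and the bone around the germ is remodelled as the germ grows.

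The study used germs of the mandibular first molar of C57BL/6 mice, an inbred strain, at embryonic day 11 (E11), E12, E14, E16 and E18, with each stage given as 1 pool of whole germs and with no other treatment or genotype named. RNA of E11, E12, E16 and E18 was labelled with Cy5 and hybridised, on 1 array per stage, against E14 RNA labelled with Cy3. Each stage therefore has n = 1, E14 was hybridised 4 times as 1 RNA, and every SD of E14 below is a technical spread over those 4 hybridisations (n = 4), with no biological replicate behind it. The early stages E11 and E12 lay on 1 slide, and the late stages E16 and E18 lay on another. The dyes were not swapped, so a gene that lies on the same side of E14 on all 4 arrays cannot be told apart from one with a dye bias. The sources used here do not state how many germs each pool held.

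On the 4 arrays 52.5% to 59.0% of probes were well above background in Cy5 and 54.3% to 57.0% in the E14 channel, and no spot was saturated. Over the measured members, the median SD of the repeated E14 readings was 0.05 log2 units, from 0.02 for Timp1 to 0.32 for Adamtsl2, and likewise 0.05 over all measured genes. The labelled tissue was checked on marker lists: 7 of 7 dental epithelium genes and 7 of 7 dental mesenchyme genes were measured, 6 of the first list rose with embryonic day and 7 of the second fell (limma's trend test, described below). Markers of other tissues were measured too. At E11, 3 of 5 measured cartilage genes and 3 of 6 red cell genes were at least 2-fold above E14, and 0 and 1 at least 2-fold below. The lists thus do not show that the pools held germ tissue alone. Log2 ratios below are stage over E14, and signals are normalized intensities that include an added offset of 50, which pulls the ratios of dim genes towards 0. In whole germs, fewer cells of a type and less RNA per cell cannot be told apart.

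The members lay mostly below E14 under the loess scaling, and the gene far above it was Adamts15 early and Mmp13 late. At E11, Adamts15 was at least 2-fold higher than E14 (1 of 35 members, against 1.60% of all measured genes), and 8 members were at least 2-fold lower (against 4.87%): Mmp9, Mmp14, Adamts2, Adamts9, Adamts18, Timp1, Timp2 and Timp3. At E12 Adamts15 was again the 1 member at least 2-fold higher (against 0.316%), and 6 were lower (against 2.63%), the same genes as at E11 without Mmp14 and Timp3. At E16 the collagenase gene Mmp13 was at least 2-fold higher (against 2.01%) and Timp1 at least 2-fold lower (against 1.70%). At E18 Mmp13 was higher (against 3.81%), and Mmp2, Adamts18, Timp1 and Timp2 were lower (against 3.86%). Taken either way, 9 members in E11 (against 6.47%), 7 in E12 (against 2.95%), 2 in E16 (against 3.70%) and 5 in E18 (against 7.67%) were at least 2-fold from E14, and 3 were at least 2-fold below it at both E11 and E18 (against 1.45%): Adamts18, Timp1 and Timp2. Log ratios as the scanner software computed them have no added offset, and with them more members were at least 2-fold from E14: 22 in E11, 16 in E12, 9 in E16 and 20 in E18. Dim genes take part in these counts: Mmp3 and Mmp24, not well above background at E11, were at -2.57 and -1.37 there. The share of all genes is not given for scanner log ratios, so these counts do not set the members apart.

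**Figure D1:**
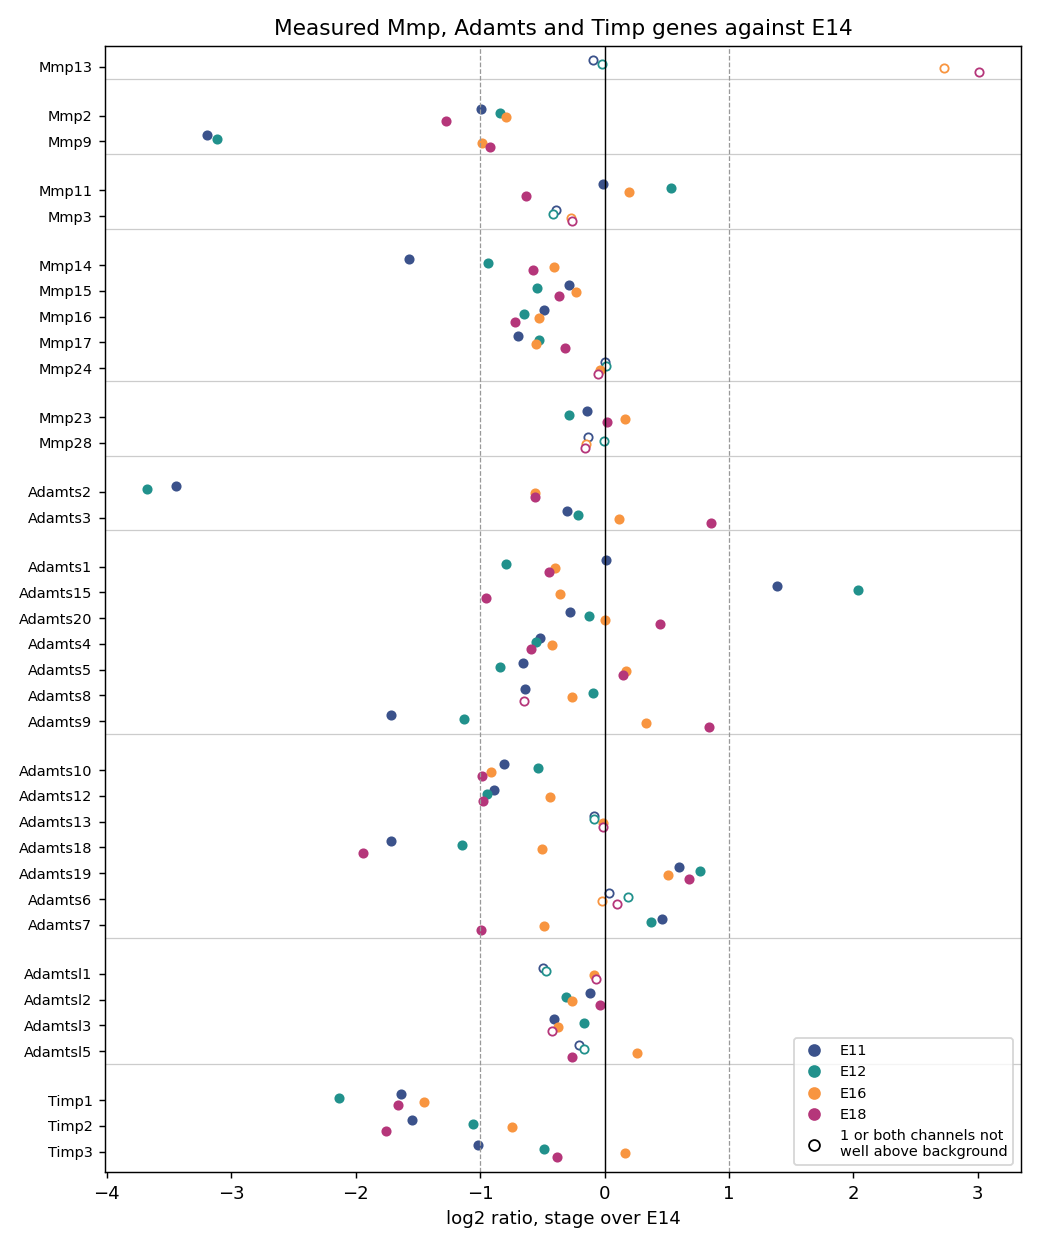
Log2 ratio of E11, E12, E16 and E18 over E14 (x axis) for each of the 35 measured members (y axis), grouped by role, with 1 point per array, the dashed lines at 2-fold and open points where 1 or both channels were not well above background. Mmp13 stands far right at E16 and E18, Mmp9 and Adamts2 far left at E11 and E12, Adamts15 right at E11 and E12, and most other points lie between 0 and a log2 ratio of -1 under the loess scaling.

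Of the 35 members, 29 lay below E14 in E11, 29 in E12, 26 in E16 and 27 in E18, against 52.2%, 50.6%, 49.3% and 51.5% of all measured genes. On all 4 arrays 20 of 35 members lay below E14, against 21.9% of all genes. With each array centred on its median in place of the intensity-dependent loess, the median of all genes moved to 0.40 in E11, 0.64 in E12, 0.57 in E16 and 0.17 in E18. Under that scaling 9 members (5.90% of all genes) were below E14 on all 4 arrays, and 22 members (29.5%) were below the median of all genes on all 4. Median-centred ratios below are read against E14, so a sign that turns there need not turn against the median of all genes. Detection alone was more even: 27, 29, 32 and 27 of the 47 genes were well above background at E11, E12, E16 and E18, against 55.1%, 58.4%, 57.8% and 53.4% of all genes, and 29 of 47 were so in E14 on all 4 arrays (53.6%).

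Mmp13, the interstitial collagenase of mouse bone and cartilage, was the member that appeared after E14. Its normalized signal was 60.3 in E11, 59.1 in E12, 521 in E16 and 654 in E18, against 71.1 ± 10.6 in E14. E16 and E18 thus stood apart from every earlier stage, and at E11, E12 and E14 the probe was not well above background. Mmp13 was at least 6.61-fold higher at E16 and at least 8.04-fold higher at E18 than E14, each a bound taken against the brighter of the dim channel's own signal and the lowest signal well above background, within the array or with E14 averaged over its 4 arrays, whichever is lower. Its slope over the 4 arrays was 0.50 ± 0.05 log2 units per day (adjusted p = 0.00641, limma). Without the E11 array the adjusted p was 0.0577.

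The Mmp13 probe lies at chr9:7280046-7280105 (build mm7, as the files give it) in a run of Mmp genes on chromosome 9. Probes of 8 members fall between 7280046 and 7695493 there: Mmp13, Mmp12, Mmp3, Mmp1a, Mmp10, Mmp8, Mmp20 and Mmp7. Of these 8 genes, 2 were measured. Mmp3, the stromelysin that cleaves proteoglycans and activates other Mmps, had signals of 55.3 in E11, 53.1 in E12, 57.1 in E16 and 58.7 in E18, none well above background, against 70.6 ± 1.52 in E14, where 2 of 4 arrays were. The collagenases Mmp1a and Mmp8, the stromelysin Mmp10, the metalloelastase Mmp12, the matrilysin Mmp7 and the enamel protease Mmp20 were not well above background at any stage. Mmp20 read 53.3 in E11, 58.6 in E12, 62.1 in E16 and 59.9 in E18, against 56.3 in E14. Among ameloblast markers, 4 of 6 were measured and 1 rose (Odam), and the enamel matrix genes Enam and Amtn were not well above background at E11, E12, E16 or E18 either.

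Promoters are shown because 8 neighbouring genes were read and 1 of them, Mmp13, was far from E14. RefSeq (GRCm38.p6) gave 35 promoters for 32 of the 47 genes, and the 250 bases before each start were searched on both strands. The AP-1 motif TGANTCA, bound by Fos and Jun proteins and the same on both strands, was found in 7 of the 10 promoters of the chromosome 9 genes, in 0 of the other 25 member promoters and in 6.75% of 32851 promoters of all genes. The TATA box TATAAA was found in 6 of the 10, 3 of the 25 and 12.4% of all, and the Runx motif TGTGGT in 2 of the 10 (Mmp13 and Mmp7), 2 of the 25 and 14.0% of all. The GC box GGGCGG was found in 0 of the 10, 19 of the 25 and 32.7% of all. The matches in the sequences below do not overlap each other. These matches are letters in a window and no measured binding. The AP-1 letters also stand before Mmp3 and Mmp20, neither of which was well above background at E11, E12, E16 or E18. The part of any motif in the course of Mmp13 was not tested. The 150 bases before the start are given for Mmp13, Mmp3 and Mmp20 of the run, and for Adamts9 and Timp1 as members elsewhere, with every match in capitals:
Mmp13, chr9:7272364-7272513, plus strand: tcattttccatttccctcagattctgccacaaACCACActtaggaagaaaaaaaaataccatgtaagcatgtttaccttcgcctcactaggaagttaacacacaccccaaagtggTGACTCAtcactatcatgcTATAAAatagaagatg
Mmp3, chr9:7445672-7445821, plus strand: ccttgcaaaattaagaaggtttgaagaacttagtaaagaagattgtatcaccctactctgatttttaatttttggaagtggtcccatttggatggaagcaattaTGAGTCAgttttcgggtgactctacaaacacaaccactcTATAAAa
Mmp20, chr9:7628081-7628230, plus strand: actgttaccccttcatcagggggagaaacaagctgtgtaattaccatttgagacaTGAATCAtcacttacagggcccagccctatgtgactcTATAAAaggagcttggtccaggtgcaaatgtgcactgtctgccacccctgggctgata
Adamts9, chr6:92943535-92943684, minus strand: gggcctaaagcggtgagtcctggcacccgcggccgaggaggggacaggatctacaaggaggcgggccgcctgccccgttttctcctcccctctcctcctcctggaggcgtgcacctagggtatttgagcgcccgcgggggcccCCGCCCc
Timp1, chrX:20870016-20870165, plus strand: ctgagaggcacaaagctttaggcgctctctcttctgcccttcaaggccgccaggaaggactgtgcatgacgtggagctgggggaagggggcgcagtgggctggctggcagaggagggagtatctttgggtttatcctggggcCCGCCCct
In Mmp13 the capitals mark, from left to right, the Runx motif (first base 118 before the start, on the other strand), AP-1 (35 before) and the TATA box (16 before). In Mmp3 they mark AP-1 (46 before) and the TATA box (7 before), and in Mmp20 AP-1 (95 before) and the TATA box (58 before). In Adamts9 and Timp1 they mark a GC box read on the other strand, 7 and 8 bases before the start. G and C made up 38.7%, 35.3% and 48.7% of the windows of Mmp13, Mmp3 and Mmp20, and 71.3% and 62.7% of those of Adamts9 and Timp1.

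The gelatinase gene Mmp9, whose enzyme cuts denatured collagen and is a known product of osteoclasts and macrophages, was low before E14 and highest in E14, also under median centring. Its signal was 65.3 in E11, 62.6 in E12, 308 in E16 and 300.1 in E18, against 579 ± 30.3 in E14. E11 and E12 stood near the offset and E16 and E18 between them and E14, with no overlap of E14's 4 values. In log2 ratios this was -3.19, -3.11, -0.98 and -0.92 (SD of E14 0.08), and a second probe with 10 spots gave -3.01, -3.13, -0.53 and -0.41. Mmp9 rose with embryonic day by 0.37 ± 0.05 per day (adjusted p = 0.0115), and without the E11 array the adjusted p was 0.0748, without E12 0.0522.

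Mmp2, the gelatinase of fibroblasts and mesenchyme, had signals of 947 in E11, 1020 in E12, 1039 in E16 and 761 in E18, against 1837 ± 33.7 in E14. All 4 stages lay below every E14 value, at log2 ratios of -0.99, -0.84, -0.79 and -1.27, and no trend with day passed (adjusted p = 0.585). With median centring the ratios were 0.04, 0.37, 0.17 and -0.75, so that the direction against E14 at E11, E12 and E16 depends on the scaling. Relative to the median of all genes, those ratios were -0.36, -0.27, -0.41 and -0.92, below it on every array.

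Of the membrane-type Mmps, which act at the cell surface, 5 of 6 were measured, and Mmp25 was not above background. Mmp14, which activates the proenzyme of Mmp2, had signals of 1805 in E11, 2743 in E12, 3748 in E16 and 3494 in E18, against 5188 ± 165 in E14. It was 2.96-fold lower at E11, and its second probe was close to it there (log2 ratio -1.46, against -1.57 for the first). At E16 and E18 the second probe was lower, at -0.65 and -0.89, against -0.40 and -0.57. The slope of the second probe was 0.07 (adjusted p = 0.335, limma). The slope of the first probe, 0.13 ± 0.04 per day, did not pass (adjusted p = 0.103). With median centring the ratio of Mmp14 was positive at E12 (0.41), E16 (0.69) and E18 (0.15). Relative to the median of all genes it was -0.23, 0.11 and -0.02 at these stages. Mmp15, Mmp16 and Mmp17 ranged over the 4 stages from -0.72 to -0.23 in log2 ratio, and Mmp24 from -0.05 to 0.01. With median centring Mmp15 was at 0.15, 0.05 and 0.34 at E11, E12 and E16. Mmp17 was then at 0.14 at E12 and 0.02 at E16, while Mmp16 stayed below 0. None of the 5 passed the trend test.

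Mmp11, stromelysin 3, which is secreted in active form, was well above background at every stage, with signals of 1063 in E11, 1610 in E12, 1213 in E16 and 677 in E18, against 1074 ± 27.7 in E14. E12 was above and E18 below all E14 values (log2 ratios 0.53 and -0.63), each under 2-fold, and no trend passed (adjusted p = 0.281). Mmp23 and Mmp28, the other measured Mmp genes, ranged from -0.29 to 0.16. Mmp19 and Mmp21 were not well above background at any stage.

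Among the Adamts genes, the procollagen N-proteinase Adamts2, which removes the amino-terminal propeptide of fibrillar procollagens, had the lowest ratios of any member at E11 and E12 under the loess scaling, while in scanner log ratios Mmp9 was lower there (-5.30 for Mmp9 and -4.51 for Adamts2 at E11, -4.79 and -4.76 at E12). Its signal was 85.9 in E11, 74.2 in E12, 654 in E16 and 681 in E18, against 963 ± 30.0 in E14. E11 and E12 lay 10.9-fold and 12.8-fold below E14, while E16 and E18 lay 1.47-fold and 1.48-fold below. Median centring turned that direction at E16 (log2 ratio 0.34), where Adamts2 was at -0.23 relative to the median of all genes. Adamts2 rose by 0.50 ± 0.07 per day (adjusted p = 0.0136, and 0.0745 without E11). Its 3 dimmer probes had smaller differences, -1.39, -0.67 and -0.02 at E11, and slopes of 0.19, 0.08 and 0.01, all 4 probes rising in sign. The probe printed first lies at chr11:50760727-50760786 (mm7).

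Adamts3, a second procollagen N-proteinase, had signals of 83.4 in E11, 94.1 in E12, 120 in E16 and 186 in E18, against 107 ± 4.34 in E14. E18 stood apart, 1.80-fold above E14, and the slope was 0.15 ± 0.03 (adjusted p = 0.0394). That call was lost without E11 (0.121), E12 (0.126) or E18 (0.289). A second measured probe had a slope of 0.03 and an adjusted p of 0.201.

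The 7 proteoglycanases, which cut versican, aggrecan and related proteoglycans, moved in both directions: Adamts9 and Adamts5 rose, Adamts15 fell and 4 did not pass. Adamts9 had signals of 140 in E11, 231 in E12, 628 in E16 and 911 in E18, against 493 ± 21.5 in E14. Each later stage was higher than the one before it, E14 included, and the ratios crossed 0 (-1.72, -1.13, 0.33 and 0.84). The slope was 0.36 ± 0.03 per day (adjusted p = 0.00589), and its call held in 11 of 12 alternatives, all but the one with slide as a block. Its 2 dimmer probes, both of mean log2 signals close to the offset, had slopes of 0.04 and 0.05.

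Adamts15 ran the other way. Its signals were 825 in E11, 1360 in E12, 207 in E16 and 138 in E18, against 295 ± 34.1 in E14, so that E11 and E12 were above and E16 and E18 below all E14 values. The ratios were 1.38, 2.03, -0.36 and -0.95, that is 2.61-fold higher at E11 and 4.10-fold higher at E12, and median centring turned the E16 ratio to 0.32. The slope was -0.41 ± 0.06 per day (adjusted p = 0.0166), with calls in 11 of 12 alternatives as for Adamts9. The probe lies at chr9:30800473-30800532 (mm7), 61.7 kb from that of Adamts8, which did not pass (slope -0.02, adjusted p = 0.787).

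Adamts5 had signals of 98.6 in E11, 83.2 in E12, 178 in E16 and 166 in E18, against 153 ± 4.70 in E14. Early stages were below and later stages above E14, each under 2-fold, with a slope of 0.15 ± 0.03 (adjusted p = 0.0492) that did not pass without E11 (0.111) or E12 (0.141). Its neighbour on chromosome 16, Adamts1, whose probe lies 67.6 kb away, did not pass and was below E14 at E12 alone by more than 0.5 (-0.79). Adamts4 lay at -0.59 to -0.42 on all arrays, and Adamts20, a protease needed for pigment cell survival in mouse skin, reached 0.44 at E18 and did not pass (adjusted p = 0.0646). With median centring Adamts1 was at 0.14 at E12 and Adamts4 at 0.01 at E16.

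**Figure D2:**
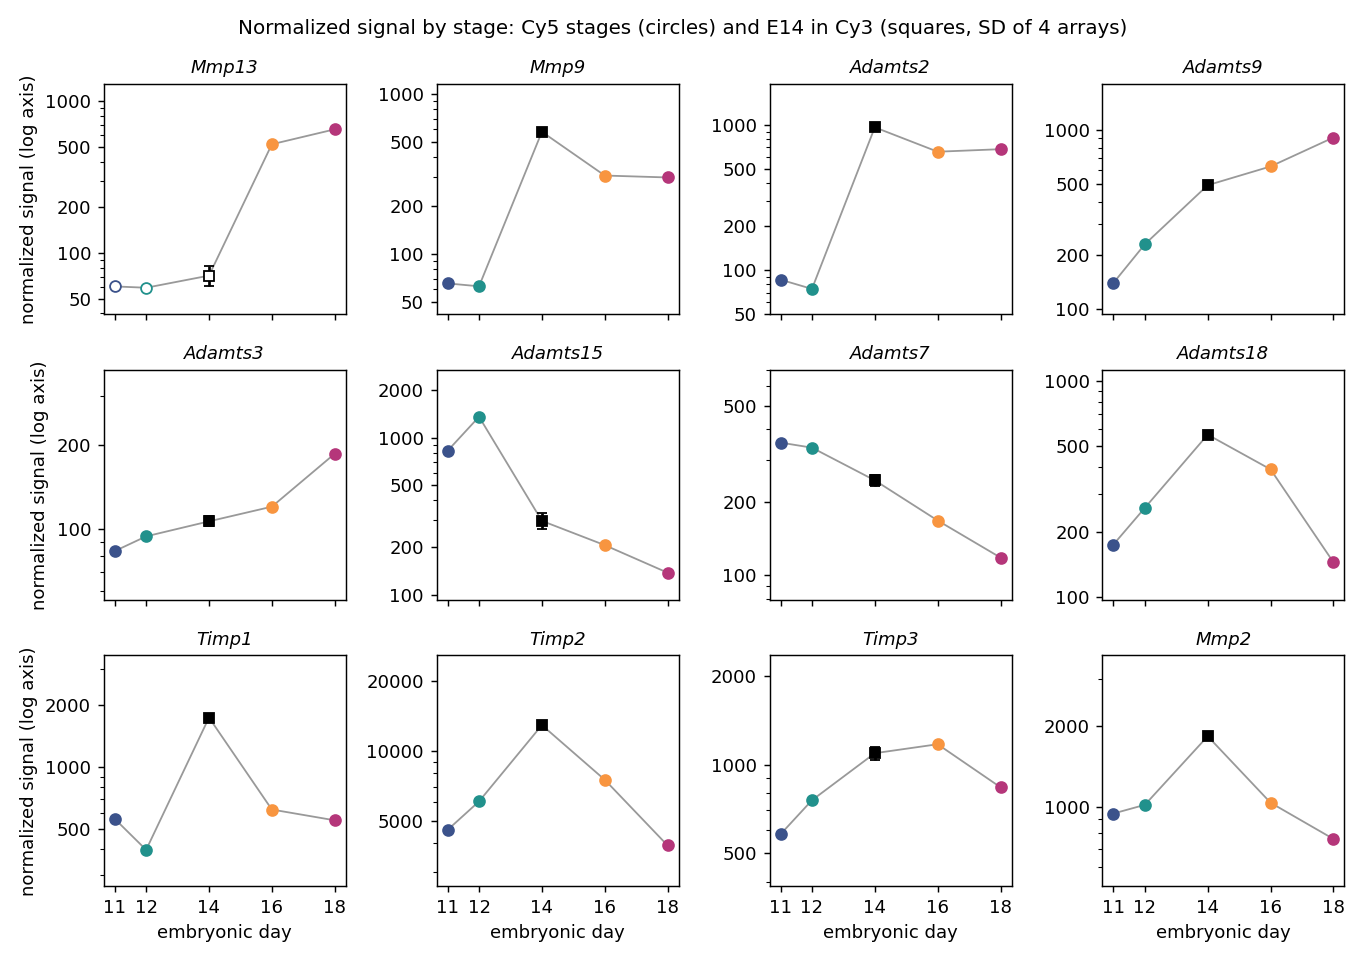
Normalized signal on a log axis (y) against embryonic day (x) for 12 members, with Cy5 stages as circles (1 array each), E14 in Cy3 as a square with the SD of its 4 hybridisations, and open symbols where not well above background. Mmp13 departs after E14, Mmp9 and Adamts2 reach their highest point at E14 from low values at E11 and E12, Adamts9 climbs and Adamts7 and Adamts15 end lowest at E18, and Adamts18, Timp1, Timp2 and Mmp2 have their highest point at E14. Under median centring Timp2 and Mmp2 stand above E14 at E12 and E16, and Adamts2 and Adamts18 at E16, but each is below the median of all genes there.

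Of the other Adamts genes, Adamts7, which cleaves cartilage oligomeric matrix protein, fell. Its signals were 352 in E11, 336 in E12, 168 in E16 and 118 in E18, against 246 ± 13.0 in E14, with no overlap between stages and E14. Median centring turned the E16 log2 ratio from -0.48 to 0.15. The slope was -0.21 ± 0.03 (adjusted p = 0.0138), and the second probe had -0.13 (adjusted p = 0.0178). Without E11 or E12 the adjusted p was 0.0657 and 0.0605.

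Adamts18, an orphan Adamts protease, had a peaked course in place of a trend, although median centring placed its E16 value above E14 (0.33). Relative to the median of all genes, that value was -0.24. Its signals were 175 in E11, 259 in E12, 390 in E16 and 145 in E18, against 564 ± 10.9 in E14. It stood 3.28-fold below E14 at E11 and 3.84-fold below at E18, and between E16 and E18 it dropped by 1.44 on the log2 scale, as 0.880% of all genes did by 2-fold or more. A linear slope does not describe it (0.00, adjusted p = 0.997), and without E18 the slope was 0.22 (adjusted p = 0.0288). The second probe was dimmer and gave -0.65, -0.36, -0.25 and -0.60.

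Adamts19 was higher than E14 on every array, at 0.59, 0.76, 0.51 and 0.68, with signals of 190 in E11, 193 in E12, 161 in E16 and 182 in E18, against 117 ± 5.99 in E14. A second measured probe was also above E14 on every array, between 0.21 and 0.48. Adamts10 and Adamts12 were lower on every array under the loess scaling, from -0.98 to -0.44, each under 2-fold. With median centring Adamts10 was at 0.07 at E12 and Adamts12 at 0.05 at E16. Adamts6 and Adamts13 were dim and stayed between -0.08 and 0.19, and Adamts16 was not well above background at any stage.

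The Adamts-like genes, secreted proteins of the matrix, stayed close to E14. Adamtsl1, Adamtsl2, Adamtsl3 and Adamtsl5 ranged from -0.50 to 0.26 over all arrays, and none was 2-fold from E14. Adamtsl1 rose by 0.07 ± 0.02 per day (adjusted p = 0.0431), from ratios of -0.50 in E11, -0.47 in E12, -0.08 in E16 and -0.07 in E18, with signals of 59.0 to 70.8, against 78.2 ± 5.30 in E14, close to the offset. It was not well above background at E11, E12 and E18, and as bounds it was at least 1.27-fold lower than E14 at E11 and at least 1.31-fold lower at E12. Its call was lost without E11 (0.142) or E12 (0.143). Adamtsl4 was not well above background.

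Under the loess scaling the Timps were highest in E14, with the exception of Timp3 at E16, while median centring placed Timp2 and Timp3 above E14 at E12 and E16 and Timp3 also at E18. Timp1, an inhibitor of most secreted Mmps, had signals of 562 in E11, 398 in E12, 624 in E16 and 553 in E18, against 1738 ± 19.8 in E14. All stages lay 2.74-fold to 4.39-fold below E14, and the log2 ratios were -1.64, -2.13, -1.45 and -1.66. Timp1 was the 1 member at least 2-fold below E14 on all 4 arrays, against 0.351% of all genes, and it stayed below E14 on all 4 under no background correction, scanner log ratios and median centring (-0.68, -1.0, -0.52 and -1.16). Its 2 dimmer probes were also below E14 on every array, by less: -0.55, -0.75, -0.52 and -0.37 for one, and -0.65, -0.75, -0.62 and -0.74 for the other. With E14 in Cy3 on every array, a Timp1 peak at E14 cannot be told apart from a dye bias of its probes.

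Timp2, which inhibits Mmp2 and also helps Mmp14 to activate it, had signals of 4563 in E11, 6056 in E12, 7509 in E16 and 3907 in E18, against 12937 ± 408 in E14. Its ratios were -1.55, -1.06, -0.75 and -1.76, but with median centring -0.15, 0.40, 0.45 and -0.95. The direction of Timp2 against E14 at E12 and E16 thus depends on the scaling. Relative to the median of all genes, the median-centred ratios were -0.55, -0.24, -0.12 and -1.12. As a difference of log2 ratios to E14, E18 was 2-fold or more below E16 (-1.01). The Cy5 signals of the 2 stages, 7509 and 3907, differed by a little under 2-fold. Timp3, which binds the matrix and inhibits Adamts enzymes as well, had signals of 580 in E11, 757 in E12, 1172 in E16 and 837 in E18, against 1093 ± 57.5 in E14. Its ratios were -1.02, -0.49, 0.17 and -0.38, and with median centring -0.10, 0.66, 1.1 and 0.11. The latter were -0.50, 0.01, 0.53 and -0.06 relative to the median of all genes. Timp4 was not well above background at any stage. None of the 3 measured Timps passed the trend test (adjusted p = 0.547, 0.892 and 0.265 for Timp1, Timp2 and Timp3).

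**Figure D3:**
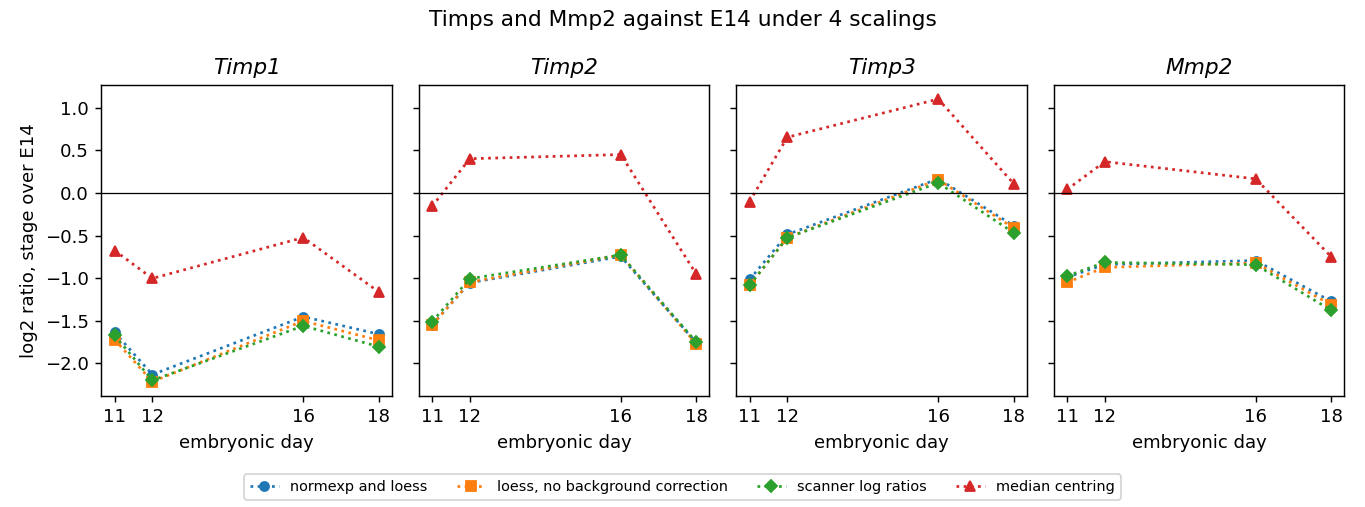
Log2 ratio of stage over E14 (y axis) against embryonic day (x axis) for Timp1, Timp2, Timp3 and Mmp2 under 4 scalings of the same 4 arrays, 1 point per array. Timp1 lies below 0 under all 4. Median centring lifts Timp2 and Mmp2 above 0 at E12 and E16 and Timp3 above 0 at E12, E16 and E18. Under that scaling Timp2 and Mmp2 still lie below the median of all genes on every array. Within each scaling Timp2 and Mmp2 are lowest at E18.

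Proteases and inhibitors were set against each other by their medians. The median log2 ratio of the 28 measured Mmp and Adamts proteases was -0.35 in E11, -0.47 in E12, -0.27 in E16 and -0.41 in E18, against -1.55, -1.06, -0.75 and -1.66 for the 3 Timps, with -0.02, 0.00, 0.00 and -0.01 over all genes. Proteases minus Timps was thus 1.20 in E11, 0.59 in E12, 0.48 in E16 and 1.25 in E18, where the spread of the 4 E14 hybridisations gives an SD of 0.04. That SD holds the Cy3 readings of 1 RNA alone, so it does not measure the spread between pools, between genes or in Cy5. The direction is not stable to scaling: with median centring the difference was -0.04 at E11, -0.36 at E12 and -0.30 at E16, and 0.82 at E18. With the mean of a gene's measured probes in place of the brightest it was 0.68, 0.72, 0.50 and 0.62. A median over 3 inhibitors is the value of 1 gene, Timp2 at E11, E12 and E16 and Timp1 at E18, and proteases overlapped the Timps at every stage.

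**Figure D4:**
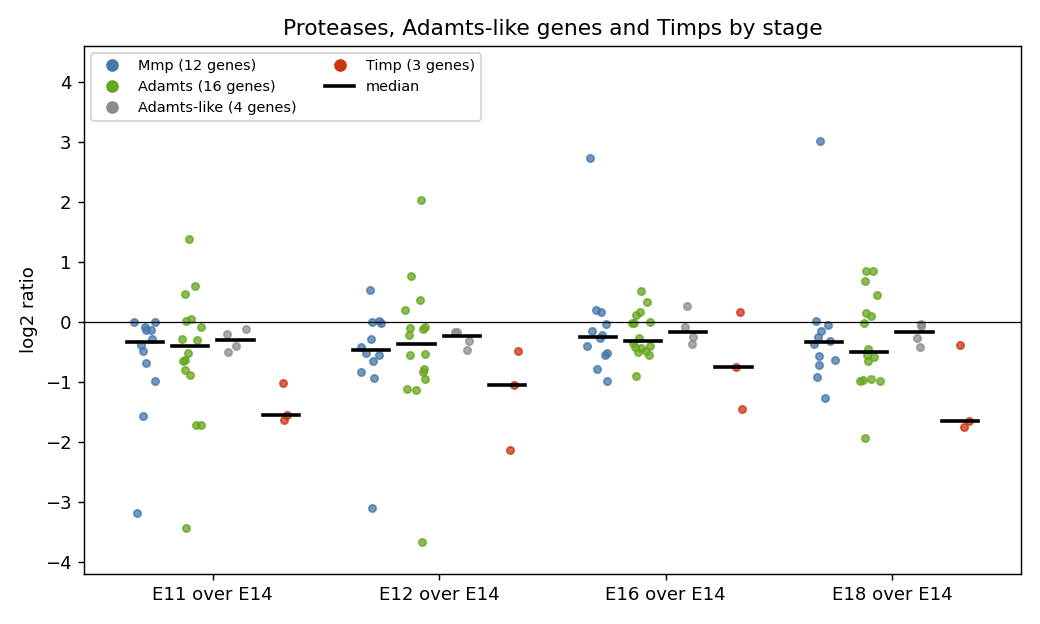
Log2 ratio over E14 (y axis) at E11, E12, E16 and E18 (x axis) for the 12 Mmp, 16 Adamts, 4 Adamts-like and 3 Timp genes measured, 1 point per gene, with bars at the median of each family. The Timp bars lie lowest at each stage under this scaling, at -1.55, -1.06, -0.75 and -1.66, and under median centring proteases minus Timps turns to -0.04, -0.36 and -0.30 at E11, E12 and E16.

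The trend with embryonic day was tested with limma over 17396 genes on 4 arrays, which leaves 2 residual degrees of freedom. Of the 35 members, 7 rose (against 6.28% of all genes): Mmp9, Mmp13, Adamts2, Adamts3, Adamts5, Adamts9 and Adamtsl1. The 2 that fell were Adamts7 and Adamts15 (against 2.64%), which makes 9 calls in all (against 8.92%). By family, 2 of 12 Mmp genes, 6 of 16 Adamts genes, 1 of 4 Adamts-like genes and 0 of 3 Timp genes passed, and 11 of 35 members had an unadjusted p under 0.05 (27.7% of all genes), 0 of them Timps. Both directions occurred within the Adamts family, and even among proteoglycanases.

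**Figure D5:**
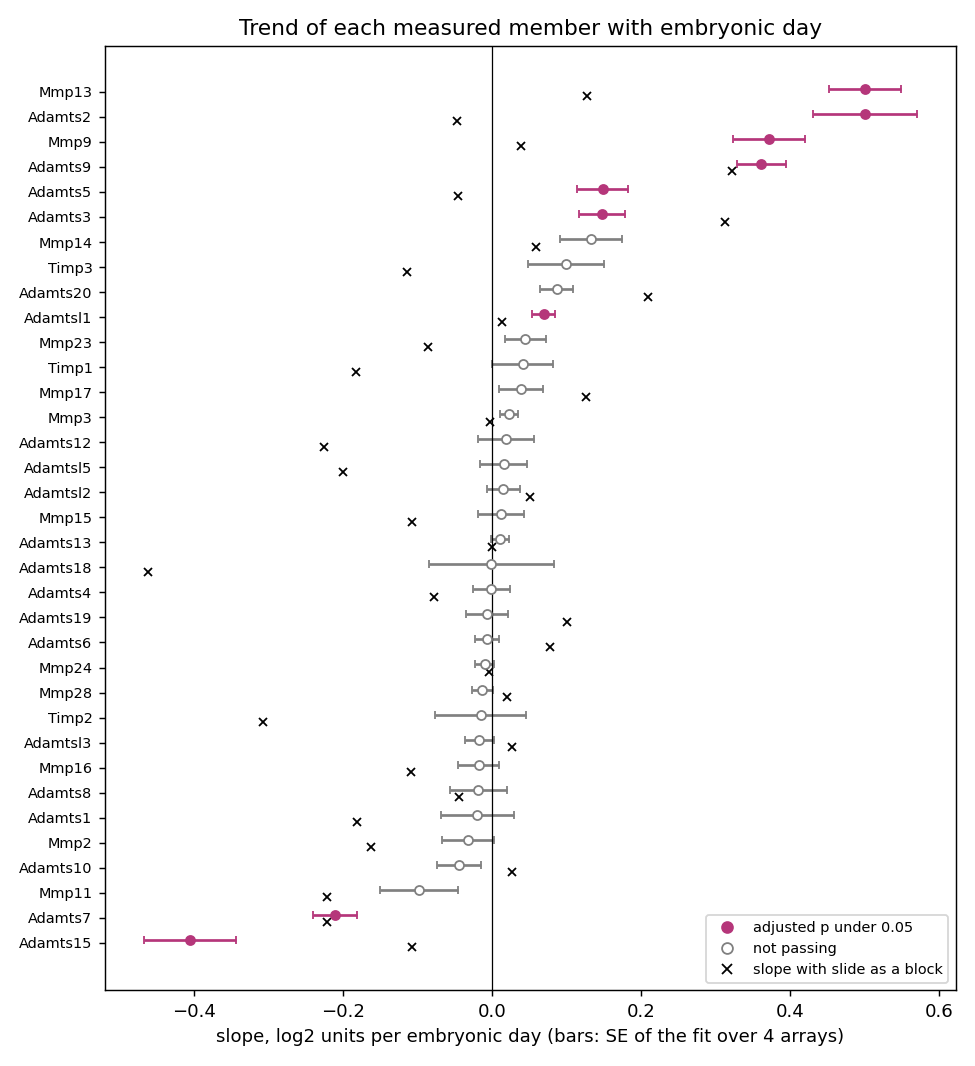
Slope of the log2 ratio per embryonic day (x axis) with the SE of the fit over 4 arrays for each of the 35 measured members (y axis), filled where the adjusted p was under 0.05, with crosses for the slope when slide is a block. Mmp13 and Adamts2 have the highest slopes (both 0.50) and Adamts15 the lowest (-0.41), and the crosses lie far nearer 0 for Mmp13, Mmp9 and Adamts2 than for Adamts9 (0.32) and Adamts7 (-0.22).

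Slide follows the early and late stages, and each slide holds stages on 1 side of E14. Fitting slide as a block left 1 residual degree of freedom, and 0 of 17396 genes then passed after adjustment, while 578 (3.32%) had an unadjusted p under 0.05, among them the members Adamts3, Adamts20 and Adamtsl5. For the 9 called members the blocked adjusted p was 0.864 for Adamts3 and 1.0 for each of the other 8. Within slides, the step from E11 to E12 and the step from E16 to E18 each compare single pools, with no replicate to measure their spread. In these steps Adamts9 gained 0.59 and 0.51, Adamts3 0.09 and 0.74, and Mmp13 0.07 and 0.28, against 0.08 and 0.06 for Mmp9 and -0.24 and 0.00 for Adamts2. Adamts7 changed by -0.09 and -0.51, and Adamts15 by 0.65 and then -0.59. Blocked slopes, with the SE of the fit, were 0.32 ± 0.17 for Adamts9, 0.31 ± 0.11 for Adamts3, -0.22 ± 0.16 for Adamts7, 0.13 ± 0.10 for Mmp13 and -0.11 ± 0.20 for Adamts15. They were 0.04 ± 0.16 for Mmp9, 0.01 ± 0.06 for Adamtsl1, -0.05 ± 0.17 for Adamts2 and -0.05 ± 0.12 for Adamts5. The same E14 RNA was read on both slides, and its signal differed by under 0.2 log2 units between them for 31 of 35 members. Mmp9 in E14 read 568 on the slide of E11 and E12 and 589 on that of E16 and E18, and Adamts2 942 and 984. These are Cy3 signals scaled between arrays, so they do not show whether slide moved the Cy5 stages. A slide effect and a difference between early and late stages cannot be told apart here.

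Between consecutive Cy5 stages, the members and all genes alike had the most 2-fold changes from E12 to E16, the step with the most days. From E12 to E16, 5 members were at least 2-fold higher (against 4.79% of all genes), Mmp9, Mmp13, Adamts2, Adamts5 and Adamts9, and Adamts15 was at least 2-fold lower (against 1.48%). From E11 to E12, 0 of 35 members moved 2-fold up (against 0.673%) or down (against 0.305%). From E16 to E18, 0 moved up (against 0.489%) and 2 down (against 0.880%), Adamts18 and Timp2. Over the whole span, E18 was at least 2-fold above E11 for 5 members (against 5.93%), Mmp9, Mmp13, Adamts2, Adamts3 and Adamts9, and at least 2-fold below it for Adamts7 and Adamts15 (against 2.53%). These steps are differences of log2 ratios to E14 between single pools, and the one from E12 to E16 also crosses slides.

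Other genes of the pathway were read from lists that hold no member. Of 18 other inhibitors and activators of matrix proteases, 15 were measured, 3 rose and 1 fell, with a median slope of 0.09 per day. The 3 were the urokinase gene Plau (0.11), the cysteine protease inhibitor Cst3 (0.20) and the integrin chain Itgav (0.19), named after their values were seen, and the integrin chain Itgb3 fell (-0.17, adjusted p = 0.0279). The highest slopes, of Serpine2 (0.22, adjusted p = 0.0602) and Thbs2 (0.20, adjusted p = 0.111), did not pass. The endocytic receptor Lrp1, which clears protease and inhibitor complexes, had -0.02 (adjusted p = 0.862) and lay below E14 on every array, from -1.87 to -0.61.

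A list of 16 genes held metalloproteinases outside the Mmp and Adamts families, with Pcolce and Pcolce2, which are no proteases. Of these, 11 were measured, 1 rose, the membrane protease Adam9 (0.24, adjusted p = 0.0103), and 1 fell, Adam19 (-0.11, adjusted p = 0.0421). The procollagen C-proteinase Bmp1 (-0.07, adjusted p = 0.355) and its enhancer Pcolce2 (0.10, adjusted p = 0.449) did not pass. Of 16 substrate genes, 15 were measured, 2 rose and 2 fell. The small proteoglycan gene Dcn rose (0.38, adjusted p = 0.0384), as did versican, Vcan (0.22), a substrate of Adamts5, Adamts9 and Adamts15, while cartilage collagen Col2a1 (-0.40, adjusted p = 0.00521) and the brain proteoglycan Ncan (-0.09) fell. Vcan and Ncan were named after their values were seen. Col1a1, which encodes a substrate of the N-proteinase Adamts2, was at -3.51 in E11, -2.28 in E12, -0.41 in E16 and -1.74 in E18, with a slope of 0.28 that did not pass (adjusted p = 0.160), and Fn1 had -0.14 (adjusted p = 0.108).

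Markers of cells that are known to make Mmp9 and Mmp13 were read beside them. Of 7 osteoclast markers 6 were measured and 4 rose, and their summed signal was 623 in E11, 489 in E12, 1374 in E16 and 1940 in E18, against 1022 to 1095 in E14. Calcr, Dcstamp, Atp6v0d2 and Tnfrsf11a were not well above background at E11, these genes and Ocstamp were not at E12, and Atp6v0d2 was not at E16 and E18. Of 8 odontoblast and bone markers 8 were measured and 4 rose, with sums of 1028 in E11, 1450 in E12, 5563 in E16 and 6670 in E18, against 3570 to 3821 in E14. Dspp, Dmp1 and Ibsp were not well above background at E11 and E12, and Dspp and Dmp1 were not at E18. Runx2 of this list was below E14 on every array, at -0.69 at E16 and -1.53 at E18. Of 7 macrophage markers 7 were measured and 0 rose, with sums of 1337, 936, 3286 and 2219 at E11, E12, E16 and E18, against 2117 to 2193 in E14. The osteoclast and bone sums were higher at E16 and E18 than in E14, as Mmp13 was, whereas Mmp9 was lower there than in E14, and the bone sum was already higher in E14 than at E11 and E12, while Mmp13 was not well above background at any of these 3 stages. The part of these cells in the values of Mmp9 and Mmp13 was not tested.

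The mesenchymal markers, all 7 of which fell, summed to 27977 in E11, 28656 in E12, 7998 in E16 and 4073 in E18, against 24379 to 24826 in E14, and the epithelial ones, of which 6 of 7 rose, to 9320, 22899, 112599 and 97802, against 59057 to 71733 in E14. Adamts15 and Adamts7 were higher at E11 and E12 than at E16 and E18, as the mesenchymal sum was, but in E14 that sum was near its early level while Adamts15 stood at 295. Adamts9 was higher at E16 and E18 than at E11 and E12, as the epithelial sum was. The part of the changing share of both tissues in these values was not tested.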

How the data were processed

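RNA of pooled molar germs was measured on 4 two-colour Agilent arrays, 1 per stage against E14. Per the file headers, the deposited scanner files come from Agilent Feature Extraction 10.5.1.1 and hold linear intensity values per spot, with mean signal, median background and flags for each channel. The deposited LogRatio values are on a log10 scale, Cy5 over Cy3, per the file headers, and the deposited value table holds the same numbers (100% equal). The same software, with no version, is named in the submitters' processing notes.

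Log2 ratios were made from those intensity values in R 4.3.3 with limma 3.58.1 (normexp with an offset of 50, loess per array, control spots at weight 0). Outlier-flagged spots, 92 to 126 on an array, were dropped, spots of a probe averaged, and the brightest probe stood for a gene. The number of arrays limits the precision. Of 41174 probes, 22951 were named by accession, 6659 by symbol and 3109 by synonym through RefSeq (GRCm38.p6), and 8455 kept the array's name. Trends were fitted with lmFit and eBayes (intensity trend) with Benjamini-Hochberg adjustment over all genes, and the step was tested on simulated data. Ratios of single arrays were counted at 2-fold with no test. Per-channel signals follow Aquantile between arrays.

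Any member could be named. Of the other lists, the 2 highest and 2 lowest slopes were named, and passing genes outside that rule are marked. The members and lists were chosen with earlier results of these data known. Alternatives were no background correction, scanner log ratios, median centring, stricter and no filters on dim genes, the mean of probes, eBayes without a trend, slide as a block and each array left out.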

Additional observations from a re-analysis of the deposited data

How the results depend on the processing

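No paired analysis was possible because each stage has 1 array. Of the member slopes under the alternatives, 375 of 410 stayed on their side of the threshold, and 28 lost and 4 gained the call with the same sign. The other 3 turned their sign between a fit that passed and one that did not. Adamts2 (-0.047) and Adamts5 (-0.045) turned and lost the call with slide as a block. Adamts18, whose slope ran from -0.092 to 0.219 when 1 array was left out, turned and gained a call without E18. Of the 375, 42 turned their sign without passing the test either way, 12 of them with slide as a block. The 7 rising and 2 falling members became 0 and 0 with slide as a block and 4 and 2 without an intensity trend in eBayes. Leaving out 1 array gave 1 to 10 rising and 1 to 2 falling members. The lowest counts came without E11, when Adamts9 (rising) and Adamts15 (falling) passed, against 149 rising and 65 falling genes in all, and without E12 there were 3 and 1. Without E16 there were 8 and 2, and without E18 10 and 2. A fit on 3 arrays has 1 residual degree of freedom fewer.

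Members at least 2-fold from E14 numbered 9 in E11, 7 in E12, 2 in E16 and 5 in E18. Scanner log ratios, which lack the offset, gave 22, 16, 9 and 20. At E16 there were 4 with no background correction, 4 with median centring, 1 with genes well above background everywhere and 1 with the mean of probes, and at E18 12 with no background correction. The share of all genes at 2-fold is not given for these alternatives, so their counts do not set the members apart. Of all genes at least 2-fold from E14, 24.7%, 10.7%, 54.2% and 49.7% were higher at E11, E12, E16 and E18, against 93.7%, 97.8%, 99.0% and 87.5% with median centring and 39.9%, 37.9%, 51.0% and 45.9% with scanner log ratios.

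Proteases minus Timps, 1.20, 0.59, 0.48 and 1.25 at E11, E12, E16 and E18, reversed with median centring at E11 (-0.038), E12 (-0.36) and E16 (-0.30) and was 0.82 at E18. It was 1.09, 0.41 and 0.33 at E11, E12 and E16 with no background correction, 0.54, 0.28, 0.20 and 1.13 with scanner log ratios, 1.03, 0.50, 0.34 and 1.09 with genes well above background everywhere, 1.15, 0.66, 0.29 and 0.92 with no filter, and 0.68, 0.72 and 0.62 at E11, E12 and E18 with the mean of probes. Timp2 at E12 turned to 0.40 with median centring, which was -0.24 relative to the median of all genes. The causes were not tested, except that the offset compresses dim ratios by construction: Mmp13 reached 5.87 at E16 and 6.89 at E18 in scanner log ratios, and Mmp9 -5.30 at E11. Dim probes, those near the offset, limit what can be read of small differences.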

Other observations

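The E14 channel held 1 RNA, yet for a few members its signal differed between slides in the direction of the stage beside it. Adamts15 in E14 read 316 and 332 on the arrays of E11 and E12, where the stage signals were 825 and 1360, and 265 and 267 on those of E16 and E18, where they were 207 and 138. Mmp13 in E14 read 64.3 and 59.8 beside stage signals of 60.3 and 59.1, and 78.8 and 81.3 beside 521 and 654. Adamtsl2 in E14 read 132 on the array of E11, beside a stage signal of 122, and 82.6 to 89.4 on the other 3 arrays. Adamtsl5 in E14 differed by 0.25 log2 units between slides, and for the other 31 members the difference was under 0.2, with a median of -0.03 over all 35.

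Probes of the same gene differed in size and, near E14, in direction. Of 14 members with several measured probes, 0 had probes that differed from E14 by 2-fold or more in opposite directions, and 5 had slopes of both signs. Adamts9 at E12 had a log2 ratio of -1.13 on its brightest probe, against -0.18 and 0.05 on its dimmer ones. The array also holds 2 probes under other names whose accessions RefSeq gives to Adamtsl1 and Adamtsl3, and these were not counted as members.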
